A study of Homo sapiens with 10 samples.

Results

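The 6 genes described here are human adhesion G-protein coupled receptor (GPCR) genes measured in transplanted human microglia, namely ADGRE1, ADGRE2, ADGRE3 and ADGRE5 of the ADGRE group and ADGRG1 and ADGRG3 of the ADGRG group. They were taken by name from the 36591 human genes of the count table, and the difference between the genotypes was in view when they were picked. Their values for that difference are therefore given as a description, with no p-value, and counts of members called are printed beside those over all genes, with nothing read from them. In AppSAA hosts, which carry amyloid mutations, the means of the 4 ADGRE genes were higher than in AppHu hosts. The genotypes overlapped for ADGRE2 and ADGRE5, and the ADGRE5 means differed by less than the SD of the AppSAA mice. ADGRG1, the most abundant of the 6, also differed by less than the spread between mice. Of the 6 genes, 5 passed a filter of at least 10 counts in at least 6 libraries, as did 15455 human genes in all, and ADGRG3 did not.

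Microglia differentiated from the H9 embryonic stem cell line were transplanted into mouse brains at postnatal day 4 and isolated at 6 months of age by sorting CD11b-positive, human CD45-positive cells. All hosts lacked functional Rag2, so they had no mature T or B cells, and carried human CSF1, the growth factor on which human microglia depend. Newborn hosts received the CSF1R inhibitor BLZ945 to deplete mouse microglia, which does not remove all of them. The AppHu hosts, labelled Rag2KO-hCSF1KI-AppKI, carried an App allele with a humanized amyloid-β sequence, and the AppSAA hosts carried the same humanized sequence with the Swedish, Arctic and Austrian mutations of familial Alzheimer's disease, both at the mouse App locus. There were 5 mice per genotype, with 1 bulk RNA library each, and the replicate numbers are those of the labels (3, 4, 6, 7 and 8 for AppHu, 4 to 8 for AppSAA). Both sexes were present in both groups in unequal proportion, the labels do not say which library is which, and all grafts came from 1 cell line.

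Adhesion GPCRs are receptors with a long extracellular part, which often cleaves itself next to the first membrane span and leaves a fragment held non-covalently on the cell surface. Pulling that fragment away exposes a tethered peptide that can switch on G proteins. The ADGRE receptors carry epidermal growth factor (EGF)-like repeats and are typical of myeloid cells, and ADGRG1 is known from cortical development and as a gene of microglia.

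In GENCODE 44 on GRCh38, the ADGRE genes lie on chromosome 19. ADGRE1 (ENSG00000174837.15) spans chr19:6887566-6940459 on the forward strand, ADGRE5 (ENSG00000123146.20) chr19:14380501-14408725 on the forward strand, ADGRE3 (ENSG00000131355.15) chr19:14619117-14690027 on the reverse strand and ADGRE2 (ENSG00000127507.18) chr19:14732392-14778560 on the reverse strand. The ADGRG genes lie on the forward strand of chromosome 16, with ADGRG1 (ENSG00000205336.14) at chr16:57610652-57665580 and ADGRG3 (ENSG00000182885.17) at chr16:57668277-57689378.

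ADGRE2 and ADGRE5 share coding sequence, and this limits how well reads can be assigned between them. The pairs of matching exons closest to identity are shown, and these exons encode EGF-like repeats. A read tells the genes apart inside the first pair only where it crosses the 1 differing base, and nowhere inside the second. ADGRE2 exon 7 (chr19:14766235-14766381, reverse strand) and ADGRE5 exon 6 (chr19:14397077-14397223, forward strand) are 147 bases long and differ at 1 base, in capitals. ADGRE2 exon 8 (chr19:14765658-14765804) and ADGRE5 exon 7 (chr19:14397658-14397804) are identical over 147 bases, and their common sequence is given once.
ADGRE2 exon 7: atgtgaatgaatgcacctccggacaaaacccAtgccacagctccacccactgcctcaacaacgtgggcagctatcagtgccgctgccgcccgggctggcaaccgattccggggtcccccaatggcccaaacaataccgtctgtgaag
ADGRE5 exon 6: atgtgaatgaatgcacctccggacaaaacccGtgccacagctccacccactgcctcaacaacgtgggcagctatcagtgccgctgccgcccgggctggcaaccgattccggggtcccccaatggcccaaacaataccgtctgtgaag
ADGRE2 exon 8 and ADGRE5 exon 7: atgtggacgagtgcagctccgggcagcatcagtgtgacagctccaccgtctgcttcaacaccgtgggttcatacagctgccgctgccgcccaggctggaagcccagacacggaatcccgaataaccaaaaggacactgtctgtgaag

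Over the 101-base windows of the canonical transcripts, the length of the sequenced reads, 255 windows were shared between ADGRE2 and ADGRE5, or 3.81% of the ADGRE2 windows and 8.25% of the ADGRE5 windows. ADGRE3 and ADGRG1 shared 0 windows with a transcript of another gene, and unnamed genes took up at most 1.81% of the windows of ADGRE1, ADGRE5 and ADGRG3. ADGRE3 is nonetheless a close copy of ADGRE2 in the membrane-spanning part, and ADGRE2 exon 15 (chr19:14752329-14752526) and ADGRE3 exon 10 (chr19:14641419-14641616) agree at 96.0% of 198 bases. The 8 differing bases, in capitals, are spaced so that every 101-base read from this exon crosses at least 1 of them.
ADGRE2 exon 15: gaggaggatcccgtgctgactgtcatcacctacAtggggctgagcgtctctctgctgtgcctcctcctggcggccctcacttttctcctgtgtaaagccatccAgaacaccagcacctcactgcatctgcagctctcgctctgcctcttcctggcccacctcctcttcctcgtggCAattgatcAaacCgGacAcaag
ADGRE3 exon 10: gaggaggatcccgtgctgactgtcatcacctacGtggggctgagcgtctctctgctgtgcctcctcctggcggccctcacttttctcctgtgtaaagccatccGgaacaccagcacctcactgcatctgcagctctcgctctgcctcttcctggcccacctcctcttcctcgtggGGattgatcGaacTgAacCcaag

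A further 18.8% of the ADGRE2 windows lie in exons of ZNF333, a zinc finger gene on the opposite strand. The strand setting of the counting and its handling of reads over overlapping genes were not given in the sources used here. Reads from these exons may therefore count for either gene or for neither. ZNF333 was at 74.3 ± 7.61 CPM (counts per 1000000 human counts, SD, n = 5) in AppHu and 69.3 ± 8.60 CPM in AppSAA. Its log2 fold change was -0.10 (standard error 0.0965, adjusted p = 0.808, edgeR, quasi-likelihood test, p adjusted by Benjamini-Hochberg). The part of these reads in the ADGRE2 values was not tested. How the counter treated reads with several matches was also not given.

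Total counts per library ranged from 29414003 to 39641854 in AppHu and from 25040739 to 31615544 in AppSAA, and 3.12% to 4.97% and 2.12% to 3.85% of them were on mouse genes. All 13 markers of homeostatic microglia listed, among them P2RY12, TMEM119 and CX3CR1, were measured, with a summed level of 44402 to 50281 CPM in AppHu and 38215 to 48372 CPM in AppSAA. Over all 15455 human genes tested the median log2 fold change was 0.0018, and 7801 genes were above 0. In bulk libraries, fewer cells of a type and less RNA per cell cannot be told apart. Nothing in the sources used here ties the replicates to shared litters or batches, and each is taken as a separate mouse.

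Levels are compared between genes per kilobase of exon (the union of the annotated exons, in CPM per kb), over all 10 mice. ADGRG1, encoding the receptor also called GPR56, was the most abundant member, with a median of 37.5 CPM per kb and a range from 31.4 to 45.1. ADGRE5 (CD97), whose ligands include CD55, followed at 2.79 CPM per kb and ADGRE2, which binds chondroitin sulphate through its EGF-like repeats, at 2.45. ADGRE1, whose mouse counterpart is a classical macrophage antigen, was at 1.65 and ADGRE3 at 0.931 CPM per kb. ADGRG3 (GPR97), known from neutrophils, came last at 0.0373 CPM per kb.

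The order held within mice for 4 of the 5 neighbouring pairs, in two-sided exact sign-flip permutation tests over the 10 mice with adjustment over the 5 pairs. ADGRG1 was above ADGRE5, ADGRE2 above ADGRE1 and ADGRE3 above ADGRG3 in 10 of 10 mice each (adjusted p = 0.00326, from 0.00195, the smallest p that 10 mice can give in this exact test). ADGRE1 was above ADGRE3 in 9 of 10 mice (adjusted p = 0.00488, exact permutation test). The mean log2 difference between ADGRE1 and ADGRE3 was 1.07 ± 0.61 in AppHu (5 of 5 mice) and 0.48 ± 0.41 in AppSAA (4 of 5). ADGRE5 and ADGRE2 did not differ beyond their spread, with a mean log2 difference of 0.14 ± 0.34 (SD, n = 10), ADGRE5 the higher in 6 of 10 mice and an exact permutation p of 0.256. That pair depends on the length used. With the longest transcript of each gene as its length, ADGRE5 was above ADGRE2 in 10 of 10 mice, by 0.54 ± 0.34 on the log2 scale (adjusted p = 0.00244, exact permutation test). Windows shared with other genes were not taken out of the lengths. They make up 22.6% of the canonical transcript windows of ADGRE2, 10.1% of those of ADGRE5 and 1.49% of those of ADGRE1. Their part in these comparisons was not tested.

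**Figure D1:**
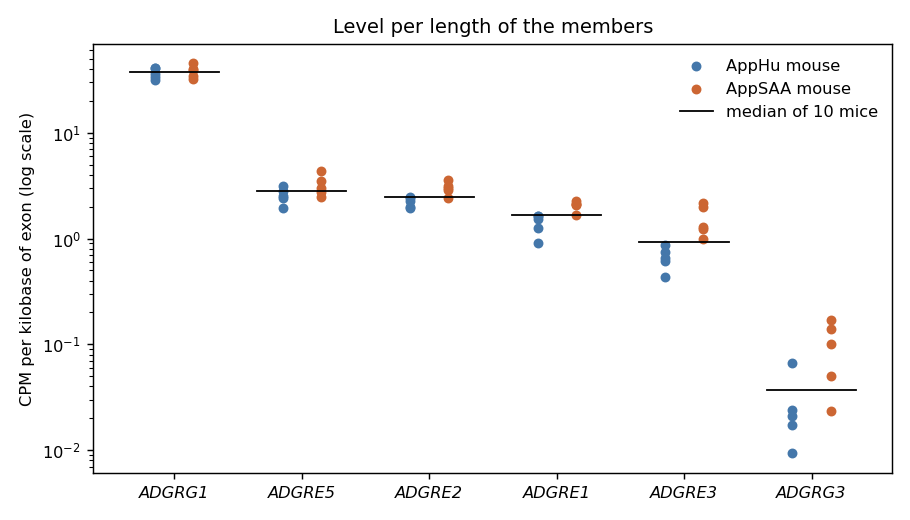
Level of each member in CPM per kilobase of exon (log axis) in each of the 10 mice, coloured by host genotype, with the median of the 10 mice as a line. Medians run from 37.5 CPM per kb for ADGRG1 down to 0.0373 for ADGRG3, and the points of ADGRE5 and ADGRE2 cover much the same range.

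Among the ADGRE genes, the 4 means were all higher in AppSAA. The difference in level was largest on the log2 scale for ADGRE3, a receptor of myeloid cells for which the mouse has no counterpart. ADGRE3 was at 1.22, 1.87, 2.47, 1.75 and 2.11 CPM in AppHu replicates 3, 4, 6, 7 and 8 and at 3.51, 2.81, 3.65, 5.61 and 6.11 CPM in AppSAA replicates 4 to 8. Every AppSAA mouse was above every AppHu mouse, and AppSAA replicates 7 and 8 stood highest. The means were 1.88 ± 0.460 and 4.34 ± 1.43 CPM (SD, n = 5 each), a log2 fold change of 1.20 (standard error 0.255). It rests on 34 to 188 counts per library.

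ADGRE1 was at 6.01, 6.05, 5.64, 4.68 and 3.33 CPM in the 5 AppHu mice in the same order and at 7.65, 6.19, 8.47, 7.78 and 7.89 CPM in the 5 AppSAA mice. The groups did not overlap, although AppSAA replicate 5 was close to the top of the AppHu range. The means were 5.14 ± 1.15 and 7.60 ± 0.845 CPM, with a log2 fold change of 0.56 (standard error 0.170).

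ADGRE2 was at 19.7, 17.2, 21.0, 21.3 and 16.9 CPM in AppHu and at 30.8, 21.1, 25.9, 25.0 and 27.1 CPM in AppSAA. Of the AppSAA mice, 4 were above all AppHu mice, and replicate 5 fell within the AppHu range. The means were 19.2 ± 2.07 and 26.0 ± 3.50 CPM, with a log2 fold change of 0.44 (standard error 0.111).

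ADGRE5 showed the widest overlap of this group, with 10.5, 13.7, 16.8, 15.2 and 12.9 CPM in AppHu and 18.8, 23.3, 14.8, 16.0 and 13.3 CPM in AppSAA. AppSAA replicates 4 and 5 were above all AppHu mice, and the other 3 lay inside their range. The means were 13.8 ± 2.38 and 17.3 ± 3.93 CPM, with a log2 fold change of 0.32 (standard error 0.164). AppSAA replicate 5 was thus the lowest AppSAA mouse for ADGRE1, ADGRE2 and ADGRE3 and the highest for ADGRE5. Without it the log2 fold change of ADGRE5 was 0.19, and a replicate block over all libraries gave 0.11.

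ADGRG1, which binds collagen III and transglutaminase 2, was at 368, 283, 324, 306 and 365 CPM in AppHu and at 287, 310, 406, 358 and 352 CPM in AppSAA. All but 1 of the AppSAA mice lay within the AppHu range, and replicate 6 was above it. The means were 329 ± 37.1 and 343 ± 46.2 CPM, with a log2 fold change of 0.058 (standard error 0.100), which was -0.010 without AppSAA replicate 6. Taking the library total into the fit gave -0.094, taking the mouse share gave 0.18, and a replicate block over all libraries gave 0.13.

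ADGRG3 had 6, 3, 2, 1 and 2 counts in AppHu and 13, 2, 13, 5 and 10 counts in AppSAA. It has no fitted value under the filter used here. Its level was 0.0302 to 0.216 CPM in AppHu and 0.0760 to 0.545 CPM in AppSAA, and 3 of the 5 AppSAA mice were above the AppHu mouse with the highest level. The sums of 14 and 43 counts per group are too small for more than these values.

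**Figure D2:**
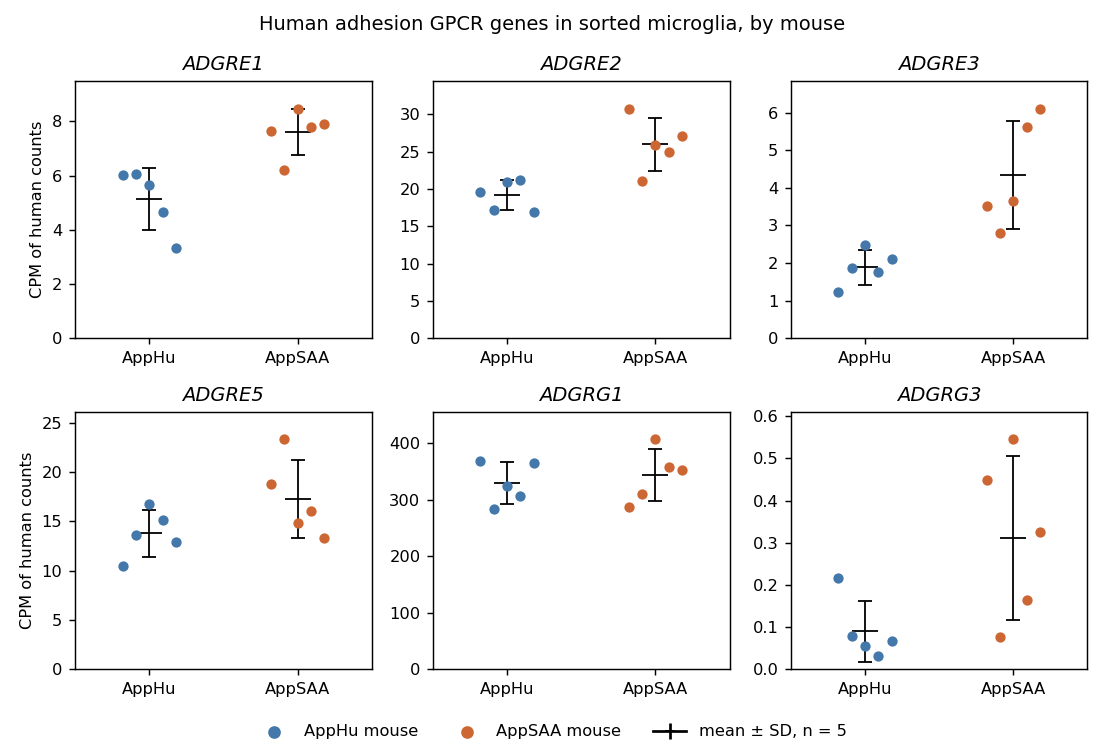
Level of each of the 6 members in CPM of human counts (linear axes from 0, a different scale in each panel), with 1 point per mouse and the mean ± SD of 5 mice. ADGRE1 and ADGRE3 lie wholly higher in AppSAA, and the groups overlap for the other 4 genes.

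Of the 5 members that passed the filter, 5 had a log2 fold change above 0, with a median of 0.44. The groups did not overlap for 2 of the 5, both higher in AppSAA, where over all human genes tested 1.58% did not overlap and were higher in AppSAA and 0.912% did not overlap and were lower. With edgeR 0 of the 5 had an adjusted p under 0.05, as against 0.0776% of all human genes tested (12 of 15455), of which 0.0712% of the genes were higher in AppSAA and 0.00647% lower. An unadjusted p below 0.05 was reached by 3 of the 5, as against 9.80% of all human genes tested (1514 of 15455). DESeq2 called ADGRE2 and ADGRE3 higher, as against 0.99% of the genes tested that it called higher and 0.401% lower. Since these genes were chosen on this contrast, nothing is read from those counts.

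From mouse to mouse the members followed no single pattern. After the group means were subtracted from log2 CPM, the correlation over the 10 libraries was 0.43 between ADGRE1 and ADGRE2 (Pearson's r, a description over libraries that share their depth and preparation). It was -0.65 between ADGRE5 and ADGRG1 and 0.18 between ADGRE2 and ADGRE3. Between ADGRE2 and ADGRE5 it was -0.13.

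Measured in the same way against about 10110 human genes with a mean of at least 5 CPM, the closest genes were ELOVL6 (r = 0.96), TCF12 (0.94) and AC016583.2 (0.94) for ADGRE1, DLEU2 (0.92), WDCP (0.91) and AC127024.2 (0.91) for ADGRE2, and TRIM39 (0.91), CDC16 (0.89) and NINJ2 (0.88) for ADGRE3. For ADGRE5 they were JARID2 (0.98), ATP6V0A1 (0.92) and NUDT13 (0.92), and for ADGRG1 TRIM37 (0.98), P2RX4 (0.94) and GLA (0.94). No gene was among the 3 closest to more than 1 member, and each r was picked as the highest of many over 10 libraries.

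The other adhesion GPCR genes are set beside the members here. Of 27 further symbols listed for the family, of which ADGRF2 and ADGRF2P name the same gene, 25 were in the table, 8 of these had no count in any library, and 9 passed the filter. With edgeR 0 of the 9 were called, 1 had an unadjusted p under 0.05 (9.80% of all human genes did), and DESeq2 called 0. Their log2 fold changes had a median of -0.068, with 3 above and 6 below 0, and ran from -0.35 for ADGRG6 to 0.23 for CELSR1. ADGRG6 (GPR126), known from the myelination of peripheral nerves, was at 80.6 ± 7.04 CPM in AppHu and 63.4 ± 12.1 CPM in AppSAA (standard error of the log2 fold change 0.125, adjusted p = 0.355, edgeR). ADGRD1 was at 42.2 ± 3.75 and 38.0 ± 3.37 CPM and CELSR2 at 15.8 ± 1.81 and 15.7 ± 2.08 CPM. No test compared the members with these genes.

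**Figure D3:**
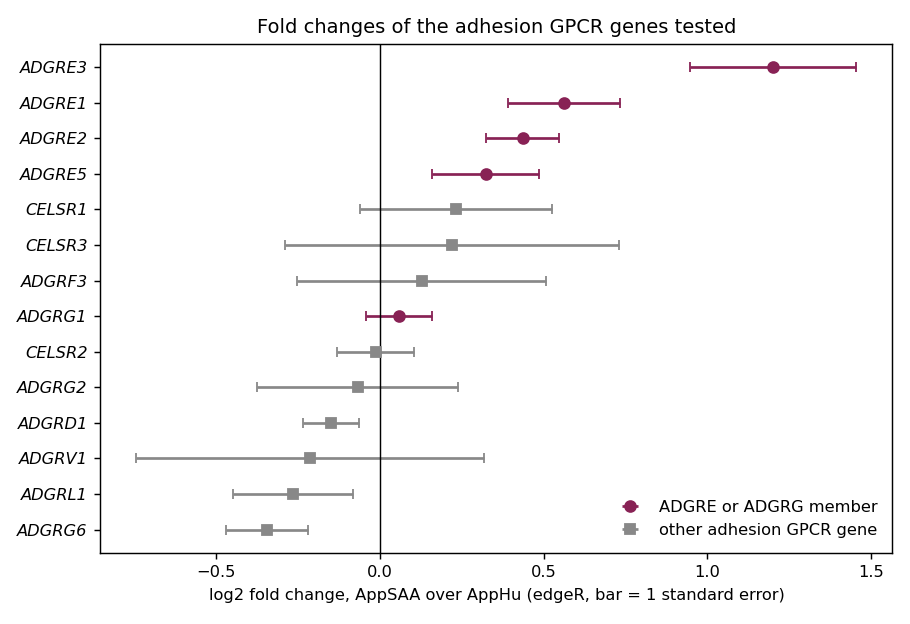
Log2 fold change of AppSAA over AppHu (edgeR) for the 5 members that passed the filter and the 9 other adhesion GPCR genes tested, with bars of 1 standard error. The 4 ADGRE genes lie from 0.32 to 1.20, ADGRG1 at 0.058, and the other genes between -0.35 and 0.23.

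Ligands and membrane partners of ADGRE5, ADGRG1 and ADGRG3 were listed by role. Of 13 such genes 8 passed the filter, 6 with a log2 fold change above 0 and 2 below, with a median of 0.063. CD9, a tetraspanin found in complex with ADGRG1 and CD81, was the 1 gene of the 8 that edgeR called, as against 0.0776% of all human genes tested, and its change was known when the list was made. It was at 8.78 ± 4.33 CPM in AppHu and 41.1 ± 13.3 CPM in AppSAA (log2 fold change 2.22, standard error 0.322, adjusted p = 0.0331, edgeR, higher in 5 of 5 AppSAA mice). CD81 was at 78.0 ± 5.75 and 79.5 ± 7.19 CPM (log2 fold change 0.026). CD55, the ligand of ADGRE5, was at 13.9 ± 4.16 and 14.7 ± 6.43 CPM (log2 fold change 0.078, standard error 0.313), and the ADGRE5 partner ITGA5 had the lowest fold change of the list (-0.46, standard error 0.158, adjusted p = 0.321). THY1, the proteinase PRTN3 and CD177, the last of which forms a complex with ADGRG3 on neutrophils, had 0 counts in the 10 libraries.

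Downstream, 20 of 24 listed genes for G proteins, arrestins and the enzymes they act on passed the filter. edgeR called 0 of them (4 of the 20 had an unadjusted p under 0.05, where 9.80% of all human genes did) and DESeq2 called 0. Their log2 fold changes had a median of -0.079, with 7 above and 13 below 0, from -0.49 for GNA15 to 0.34 for PLCB1. GNA12, encoding a G protein alpha subunit, was at 6.33 ± 0.549 and 7.93 ± 1.55 CPM and its relative GNA13 at 122 ± 7.56 and 112 ± 9.18 CPM. The kinase ROCK2 had the smallest p of the list, with 72.4 ± 5.08 and 60.5 ± 4.44 CPM (log2 fold change -0.26, standard error 0.0719, adjusted p = 0.216, edgeR). Its groups did not overlap, where 0.912% of all human genes tested did not overlap and were lower.

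Lists for other cell states and cell types are given beside the members, and their part in the members' values was not tested. All 12 immediate early genes listed, which respond quickly to stimulation, had a log2 fold change above 0 (median 0.78), from 0.23 for JUNB to 1.48 for EGR1, and edgeR and DESeq2 called EGR1 and EGR3, the latter with the smallest p. That is 2 of 12, where edgeR called 0.0776% of all human genes tested and DESeq2 called 0.99% higher, and 9 of the 12 had an unadjusted p under 0.05, where 9.80% of all did. At most 1 of these 2 edgeR calls can remain with the library total as a covariate, where edgeR called 1 human gene in all. Of 9 markers of CNS-associated macrophages tested, 8 were below 0 (median -0.47), from -0.70 for F13A1 to 0.23 for SIGLEC1. edgeR called 0 of the 9 (3 had an unadjusted p under 0.05, where 9.80% of all human genes did), with the smallest p for MS4A4A, and DESeq2 called 2 of the 9, MRC1 and MS4A4A, lower, where it called 0.401% of all human genes lower. The summed level of these markers was 4727 to 5401 CPM in AppHu and 3974 to 5001 CPM in AppSAA. All 13 homeostatic microglia markers were below 0 by a small amount (median -0.071), from -0.17 for C1QA, with the smallest p, to -0.0022 for C1QB. edgeR called 0 of the 13 (3 had an unadjusted p under 0.05, where 9.80% of all human genes did), as did DESeq2.

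In the lists for blood cells in which ADGRE and ADGRG genes are known, edgeR and DESeq2 called 0 of the 14 genes tested, and 2 of the 14 (S100A8 and CXCR2) had an unadjusted p under 0.05, where 9.80% of all human genes did. The neutrophil list summed to 1001 to 1120 CPM in AppHu and 1003 to 1103 in AppSAA, of which CSF3R made up 973 ± 46.7 and 983 ± 36.7, while MPO and MMP8 had 0 counts. Its 3 genes tested were above 0, from 0.014 for CSF3R to 0.33 for CXCR2 (adjusted p = 0.426, edgeR). The eosinophil list summed to 659 to 714 and 601 to 706 CPM, nearly all of it SIGLEC8 (678 ± 22.1 and 638 ± 43.7, log2 fold change -0.087), while CLC had 0 counts and CCR3 was at 0.386 and 0.553 CPM (log2 fold change 0.50). The NK and T cell list summed to 1.15 to 4.31 and 2.36 to 3.35 CPM, with GNLY tested (log2 fold change 0.074). The dendritic cell list summed to 25.6 to 63.7 and 30.4 to 83.9 CPM, with 3 of 4 genes tested above 0, from -0.997 for CLEC10A to 0.64 for LAMP3, which had the smallest p (adjusted p = 0.614, edgeR). The mast cell list summed to at most 0.0380 CPM with KIT and CPA3 at 0.

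Of the monocyte markers, 3 of the 4 tested were above 0. The list summed to 97.2 to 111 CPM in AppHu and 110.0 to 146 CPM in AppSAA, with S100A12 and FCN1 at 0. S100A8, a calcium-binding protein of monocytes and neutrophils, was at 0.577 ± 0.231 and 3.87 ± 6.63 CPM (log2 fold change 2.72, standard error 0.902, adjusted p = 0.308, edgeR). AppSAA replicate 4 held 456 of its counts, where the other AppSAA mice had 17 to 40 and the AppHu mice 5 to 27. LYZ was at 13.9 ± 1.22 and 17.7 ± 4.67 CPM (log2 fold change 0.35, adjusted p = 0.512) and CCR2 had the lowest fold change of the list (-0.32). Without AppSAA replicate 4 the log2 fold changes were 0.56 for ADGRE1, 0.37 for ADGRE2, 1.27 for ADGRE3 and 0.29 for ADGRE5.

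RefSeq promoter sequences (GRCh38.p14, 250 bases before to 50 after a start) were given for 3 of the 6 members, ADGRE1, ADGRE3 and ADGRG1. They were searched for TGANTCA, the site of the AP-1 factors of the FOS and JUN families, which reads alike on both strands. Of 35116 promoters in the table, 2707, or 7.71%, hold it. The ADGRE3 window (chr19:14674795-14675094, reverse strand) has 1 match, 53 bases before the start. The ADGRE1 window (chr19:6887329-6887628, forward strand) has 0, and of 3 ADGRG1 windows 1 has 2 matches (chr16:57628380-57628679, forward strand) and the others 0. The windows were also searched for GGAA, the core of the ETS motif, and GAGGAA, the PU.1 motif, held by 95.5% and 27.9% of promoters. GAGGAA had 1 match in the ADGRE3 window, as TTCCTC, and 0 in the others. GGAA had 5 in the ADGRE3 window, 4 in the ADGRE1 window and 7, 4 and 0 in the 3 ADGRG1 windows. The 250 bases before the start follow, with TGANTCA matches in capitals. They are given for the pair of ADGRE genes without overlap between the genotypes and for the ADGRG1 start with such matches. The ADGRE3 and ADGRG1 windows shown lie inside the gene spans given above. Which start these cells use was not tested.
ADGRE3: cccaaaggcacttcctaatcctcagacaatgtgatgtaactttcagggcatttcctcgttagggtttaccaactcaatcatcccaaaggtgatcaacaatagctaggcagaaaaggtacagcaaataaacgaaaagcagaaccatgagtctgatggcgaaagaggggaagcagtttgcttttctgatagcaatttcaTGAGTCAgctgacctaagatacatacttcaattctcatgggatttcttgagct
ADGRE1: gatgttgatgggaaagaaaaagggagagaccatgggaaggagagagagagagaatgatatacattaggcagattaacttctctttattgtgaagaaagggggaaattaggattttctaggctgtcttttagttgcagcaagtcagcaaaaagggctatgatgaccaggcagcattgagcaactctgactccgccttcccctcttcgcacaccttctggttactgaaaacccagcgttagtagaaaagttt
ADGRG1: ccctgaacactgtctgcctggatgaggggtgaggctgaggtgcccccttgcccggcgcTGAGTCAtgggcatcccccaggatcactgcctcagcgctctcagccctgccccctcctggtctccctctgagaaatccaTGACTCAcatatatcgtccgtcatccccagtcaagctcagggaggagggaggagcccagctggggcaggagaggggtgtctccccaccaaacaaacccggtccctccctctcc

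A match is a stretch of letters, not a bound site, and no binding was measured here. Of the FOS and JUN family genes listed, FOS was at 1288 ± 212 CPM in AppHu and 1698 ± 499 CPM in AppSAA (log2 fold change 0.40, adjusted p = 0.522, edgeR). JUN was at 29.9 ± 9.80 and 46.3 ± 19.6 CPM (log2 fold change 0.63, adjusted p = 0.495, edgeR). The log2 fold change was 0.74 for FOSB (standard error 0.313, adjusted p = 0.459, edgeR) and 0.23 for JUNB (standard error 0.651, adjusted p = 0.955, edgeR). A link between these genes and the members was not tested.

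The mouse genes of the same groups were read in the same libraries and were not used to choose the members. Of 9 listed mouse Adgre and Adgrg genes 3 passed the filter, and edgeR called 0 of them (1 had an unadjusted p under 0.05), as against 0% of the 9376 mouse genes tested (878 had an unadjusted p under 0.05), and DESeq2 called 0 of the 3. Adgrg1 was at 480 ± 168 CPM of mouse counts in AppHu and 729 ± 184 in AppSAA (log2 fold change 0.60, standard error 0.264, adjusted p = 0.498, edgeR). Adgre1 was at 129 ± 55.8 and 157 ± 46.7 CPM (log2 fold change 0.28, standard error 0.311, adjusted p = 0.835) and Adgre5 at 33.3 ± 17.5 and 36.4 ± 18.6 CPM (log2 fold change 0.12, standard error 0.476, adjusted p = 0.966). With each library left out in turn, Adgre1 ran from 0.098 to 0.52, Adgre5 from -0.15 to 0.42 and Adgrg1 from 0.45 to 0.79. The 9 mouse microglia markers listed, among them P2ry12, Tmem119 and Cx3cr1, also had log2 fold changes above 0, with a median of 0.59. Their summed level was 4296 to 8665 CPM of mouse counts in AppHu and 6232 to 14048 CPM in AppSAA, edgeR and DESeq2 called 0 of them (4 had an unadjusted p under 0.05), and their part in the Adgre and Adgrg values was not tested. In simulated mouse counts of this depth edgeR recovered 0% of genes changed by 1 on the log2 scale and DESeq2 15%, with 21.1% of its calls false, so most changes of that size would be missed.

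The share of counts on the mouse gene differed greatly between the pairs. For ADGRE1 and Adgre1, 26.4% to 58.3% of the counts of the pair were on the mouse gene in AppHu and 29.1% to 47.2% in AppSAA, in 10 of 10 libraries more than the share of mouse counts in the library as a whole. For ADGRE5 and Adgre5 the mouse share was 3.32% to 19.0% and 2.20% to 12.8%, above that of the library in 8 of 10, and for ADGRG1 and Adgrg1 2.44% to 9.17% and 3.77% to 9.58%, above it in 9 of 10. Adgrg3 had 3 counts in AppSAA replicate 5 and 2 in AppSAA replicate 7, beside 2 and 5 on human ADGRG3, and 0 elsewhere, too few for a share. The mouse share of whole libraries was 3.12% to 4.97% in AppHu and 2.12% to 3.85% in AppSAA, ranges that overlap. Whether mouse reads are counted on human ADGRE1 was not tested.

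**Figure D4:**
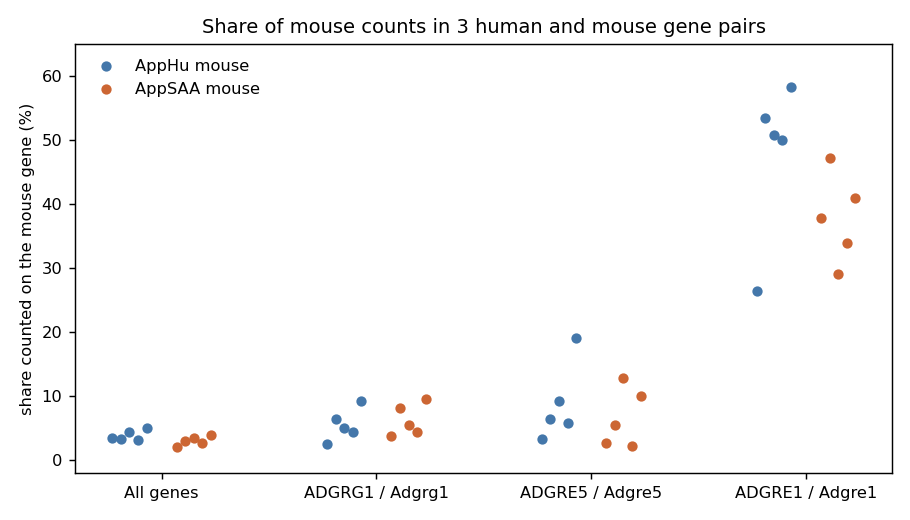
Share of counts on the mouse gene, in percent of the counts of 3 human and mouse gene pairs, in each of the 10 libraries, beside the share over all genes. Of these pairs ADGRE1 and Adgre1 have the highest shares, 26.4% to 58.3%.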

How the data were processed

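Bulk RNA from 10 sorted human microglia samples (5 AppHu, labelled AppKI, and 5 AppSAA) was made into full-length cDNA and sequenced as single reads. The authors aligned the reads with STAR 2.7.11a to a joint mm10 and GRCh38 reference and counted them with featureCounts 2.0.1, and the deposited values are raw counts per gene. The annotation release and the handling of strand and multiple matches were not given in the sources used here.

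Human rows were those above mouse Xkr4. Human and mouse rows were normalized and tested apart with edgeR 4.0.16 (TMM, glmQLFit in legacy mode, glmQLFTest, R 4.3.3) over genes that reached 10 counts in 6 or more of the 10 libraries, with no covariate, and p-values were adjusted by Benjamini-Hochberg (threshold 0.05). CPM are counts per 1000000 after TMM scaling. Standard errors were obtained by dividing each fold change by the square root of its F statistic. Sign-flip tests were run in Python 3.11.15. Positions are from GENCODE 44 and promoters from RefSeq. The alternatives were DESeq2 1.42.0, RLE factors, other filters, covariates, a replicate block, each library left out and, added after seeing the data, edgeR without legacy mode.

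The members and all gene lists were chosen with earlier results of these data known. 1 gene of the rule is not reported here. The other 6 members are named, and of each human list with genes tested those with the smallest p and the highest and lowest fold change, and some genes for their role. Within groups, libraries differed by 12.1 to 78.6 chi-square per degree of freedom, so none was a duplicate. On simulated human counts edgeR recovered 68.5% of genes changed by 1 on the log2 scale, with 4.20% of its calls false, and DESeq2 77.0%, with 16.3% false.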

Additional observations from a re-analysis of the deposited data

Results flagged for a closer look

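ADGRG3 in AppHu replicate 3 stood apart from its group at 0.216 CPM, with the next mouse at 0.0779 CPM. The gap is 0.743 of the group's range, over the critical value of 0.71 for 5 samples. The values are 6 counts against 3, and chance marks about 1 in 20 groups, where 1 of the 18 groups checked here was marked.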

How the results depend on the processing

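The log2 fold changes of ADGRE1, ADGRE2, ADGRE3 and ADGRE5 kept their sign under all 19 alternatives. With each library left out they ran from 0.44 to 0.63 for ADGRE1, 0.37 to 0.50 for ADGRE2, 1.05 to 1.32 for ADGRE3 and 0.19 to 0.40 for ADGRE5. ADGRG1 was at -0.010 to 0.12, below 0 without AppSAA replicate 6, and under the other alternatives ran from -0.094 with the library total to 0.18 with the mouse share as a covariate. ADGRE5 was at 0.11 with a replicate block over all libraries and 0.10 over the shared numbers. Mouse Adgre1 was at -0.064 with the mouse share as a covariate and 1.01 with the library total, and mouse Adgre5 between -0.34 and 0.72.

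The 12 human genes called by edgeR became 215 with DESeq2, 32 without a filter, 5 with the mouse share and 1 with the library total as a covariate, and 19 without legacy mode. Leaving out 1 library gave 2 to 34 calls, 2 each without AppHu replicate 3 or 7 or AppSAA replicate 8, 4 each without AppHu replicate 4 or AppSAA replicate 6, and 34 without AppSAA replicate 5. Fits with 1 or 2 calls cannot hold CD9, EGR1 and EGR3 together, and the counts do not say which of them stayed called. Of the members, 0 were called by edgeR and 2 by DESeq2. Mouse calls went from 0 to 12 with DESeq2, 1 without a filter and 1 without legacy mode. In AppSAA mice alone, 2 members (ADGRE2 and ADGRE5) changed rank, and 5 mice cannot give an exact p under 0.0625. The replicate numbers do not mark shared mice, litters or days in the labels, and deviations of same-numbered libraries correlated at 0.061, 0.032, 0.18 and 0.11. With the replicate block, 59 human genes were called over all libraries and 58 over the shared numbers, and 0 members each time. The causes were not tested. ADGRE3 and ADGRG3 rest on few counts.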
